A study of Mus musculus with 11 samples.

Results

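The genes of major histocompatibility complex (MHC) class I and class II antigen presentation were examined in the RPE/choroid of aged C57BL/6J mice 3 months after nanosecond laser treatment. The 10 genes were taken by their symbols, and all 10 were among the 14602 genes of the count table: B2m, H2-K1, H2-D1, Tap1, Tap2, Tapbp, H2-Aa, H2-Ab1, H2-Eb1 and Cd74. Relative to naïve controls, the laser treated samples had higher mean levels of the classical class I heavy chains H2-D1 (1.58-fold) and H2-K1 (1.38-fold) and of the peptide loading genes Tapbp and Tap2, and a lower mean level of B2m (0.747-fold). Across all genes the fold change followed GC content. With that trend removed, the log2 fold change of B2m went from -0.42 to -0.09. Only H2-D1 of the 10 genes then had an unadjusted p below 0.05 (0.0147, edgeR). The class II chains were low in both groups and varied up to 12.3-fold between libraries. None of the 10 genes passed the adjusted threshold of 0.05 with edgeR, the main test, whereas DESeq2, run as an alternative, called H2-D1.

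Both groups were wild type C57BL/6J mice collected at 12 months of age. The 5 laser treated mice had received the 2RT nanosecond laser, which ablates small discrete areas of the retinal pigment epithelium (RPE), in the eye at 9 months of age. The 6 naïve control mice were of the same age and had no laser treatment. Each library was made from total RNA of RPE and choroid, the pigmented and vascular tissue beneath it, pre-amplified with a SMART-Seq v4 kit and prepared with Nextera XT. Because the whole RPE/choroid was taken, each sample holds laser treated spots together with untreated RPE. The labels do not say which animal gave which library, so p-values measure the spread between these libraries. In bulk tissue, fewer cells of a type and less RNA per cell cannot be told apart.

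MHC class I molecules carry peptides from the cytosol to the surface of nearly all nucleated cells, where CD8+ T cells read them. Each consists of a polymorphic heavy chain and the invariant light chain beta-2-microglobulin, and peptides reach it through the TAP transporter. MHC class II molecules present peptides of endocytosed proteins to CD4+ T cells and are made mainly by macrophages, dendritic cells and B cells, although interferon-gamma can induce them in RPE cells. C57BL/6J mice carry the H2-b haplotype, which lacks a working H2-Ea gene, so the I-E beta chain encoded by H2-Eb1 has no partner at their cell surface.

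The promoters of both classes are known for a shared upstream module, in which an X2 box and a Y box are bound by factors that recruit the coactivators NLRC5 (class I) or CIITA (class II). Upstream sequence of 250 bases was held in the RefSeq promoter table (GRCm38.p6) for 7 of the 10 genes, and for Tap2, H2-Ab1 and Cd74 it was not. The following stretches are shown because they hold this pair of elements, or part of it, in genes whose values are compared here. They are written 5′ to 3′ on the strand of the gene, and capitals mark TGACG (the X2 core) and ATTGG (the Y core) on either strand, where the reverse complements read CGTCA and CCAAT. For H2-D1 only the 30 bases from one element to the other are shown, because they lie inside the annotated GENCODE exon that starts upstream of the RefSeq start. Tap1 held TGACG and, on the other strand, ATTGG, and Tapbp held ATTGG. Neither is shown, because the stretch taken for each overlapped its annotated GENCODE gene.
B2m (chr2:122147549-122147663, + strand): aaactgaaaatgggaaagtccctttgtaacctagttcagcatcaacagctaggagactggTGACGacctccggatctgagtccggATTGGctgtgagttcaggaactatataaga
H2-K1 (chr17:34000348-34000448, - strand): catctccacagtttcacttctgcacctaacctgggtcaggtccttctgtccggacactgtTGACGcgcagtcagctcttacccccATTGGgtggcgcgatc
H2-D1 (chr17:35262993-35263022, + strand): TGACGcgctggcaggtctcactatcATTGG
H2-Aa (chr17:34287842-34287957, - strand): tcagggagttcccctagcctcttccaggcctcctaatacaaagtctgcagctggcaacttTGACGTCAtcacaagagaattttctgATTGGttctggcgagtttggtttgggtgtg
H2-Eb1 (chr17:34305747-34305866, + strand): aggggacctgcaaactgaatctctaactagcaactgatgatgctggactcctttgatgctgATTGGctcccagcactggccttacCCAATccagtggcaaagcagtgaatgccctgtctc

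The start of TGACG and the start of the following ATTGG were 25 bases apart in B2m, H2-K1 and H2-D1 and 26 bases apart in H2-Aa. This spacing of 25 to 26 bases was held by 4 of the 7 genes and by 41 of all 27025 promoters of the table (0.152%). Singly the elements were common, TGACG in 17.9% and ATTGG in 34.5% of all promoters, and in 5 and 7 of the 7 genes. The letters GAANNGAAA, a form of the interferon-stimulated response element, were present in H2-K1 and H2-D1 of the 7 genes and in 6.34% of all promoters. In H2-Aa the TGACG overlapped its own reverse complement. The search letters were chosen after the sequences had been seen, and a match describes letters only. The spacing searched for was that of these 4 genes, so setting their share beside that of all promoters is not a test. B2m and the heavy chains thus shared this spacing upstream, while their mean levels in the laser treated samples lay on opposite sides of the controls. The difference of B2m did not pass (unadjusted p = 0.0569, edgeR). With the trend of fold change by GC content removed, its log2 fold change went from -0.42 to -0.09 (unadjusted p = 0.642, edgeR).

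The count table was fitted across all 14602 genes with edgeR's quasi-likelihood test, and values are given as CPM, counts relative to a library total scaled by the trimmed mean of M values (TMM). Library totals were 25700881 to 36766020 counts in the naïve controls and 32094560 to 38755994 in the laser treated group. With Benjamini-Hochberg adjustment, 0 genes (0%) passed 0.05. At an unadjusted p below 0.05, 2325 genes (15.9%) passed, of which 1203 (8.24%) were higher and 1122 (7.68%) were lower in the laser treated samples. DESeq2 called 547 of the 6946 genes to which it gave an adjusted p (7.88%). Of the 10 MHC genes, 4 had an unadjusted p below 0.05, all higher in the laser treated samples (H2-D1, H2-K1, Tapbp and Tap2). The median log2 fold change was 0.46 over the 10 genes and -0.02 over all genes, with 8 of the 10 above 0. None of the 10 had groups that did not overlap, against 1.4% of all genes with every laser treated library above every control.

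H2-D1 (ENSMUSG00000073411, chr17:35262730-35267499) encodes the D-locus class I heavy chain. In the naïve controls its level was lowest at 55.6 CPM, with a median of 99.05 and a highest value of 129.3 CPM. Laser treated libraries 1 to 5 held 128.0, 168.8, 151.4, 150.9 and 155.3 CPM. All but laser treated library 1 lay above the highest control, so the groups overlapped by this library alone. The means were 95.5 ± 24.9 CPM (SD, n = 6) and 150.9 ± 14.7 CPM (SD, n = 5). The log2 fold change was 0.66 ± 0.18 (SE) with an unadjusted p of 0.00228 and an adjusted p of 0.174 by edgeR. DESeq2 gave it an adjusted p of 0.0246, and called no other member to which it gave an adjusted p. Tap1, H2-Aa, H2-Ab1 and H2-Eb1 received no adjusted p from DESeq2.

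H2-K1 (ENSMUSG00000061232, chr17:33996017-34000347) encodes the K-locus heavy chain, the other classical class I molecule of this strain. Control values ran from 60.04 CPM through a median of 87.3 to 104.2 CPM. The laser treated libraries held 121.6, 99.6, 110.5, 114.9 and 140.4 CPM. Laser treated library 2 lay within the control range and the other 4 lay above it. Mean levels were 85.2 ± 17.1 CPM (SD, n = 6) in controls and 117.4 ± 15.1 CPM (SD, n = 5) after laser, a log2 fold change of 0.46 ± 0.15 (unadjusted p = 0.00911, adjusted p = 0.195, edgeR). Reads of near-identical heavy chain genes can be divided among them by the counting, so the separate values of H2-K1, H2-D1 and the H2-Q and H2-T genes are uncertain.

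B2m (ENSMUSG00000060802, chr2:122147686-122153083), the light chain common to all class I molecules, lay on the other side. Its control levels were 855.5 CPM at the lowest, 1089 at the median and 1274 at the highest. Laser treated libraries 1 to 5 held 1082, 663.2, 715.2, 487.4 and 1146 CPM. Libraries 2, 3 and 4 lay below every control, while libraries 1 and 5 lay within the control range. The group means were 1097 ± 158 CPM (SD, n = 6) and 818.8 ± 283.5 CPM (SD, n = 5). The log2 fold change of -0.42 ± 0.20 did not pass (unadjusted p = 0.0569, adjusted p = 0.332, edgeR).

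**Figure D1:**
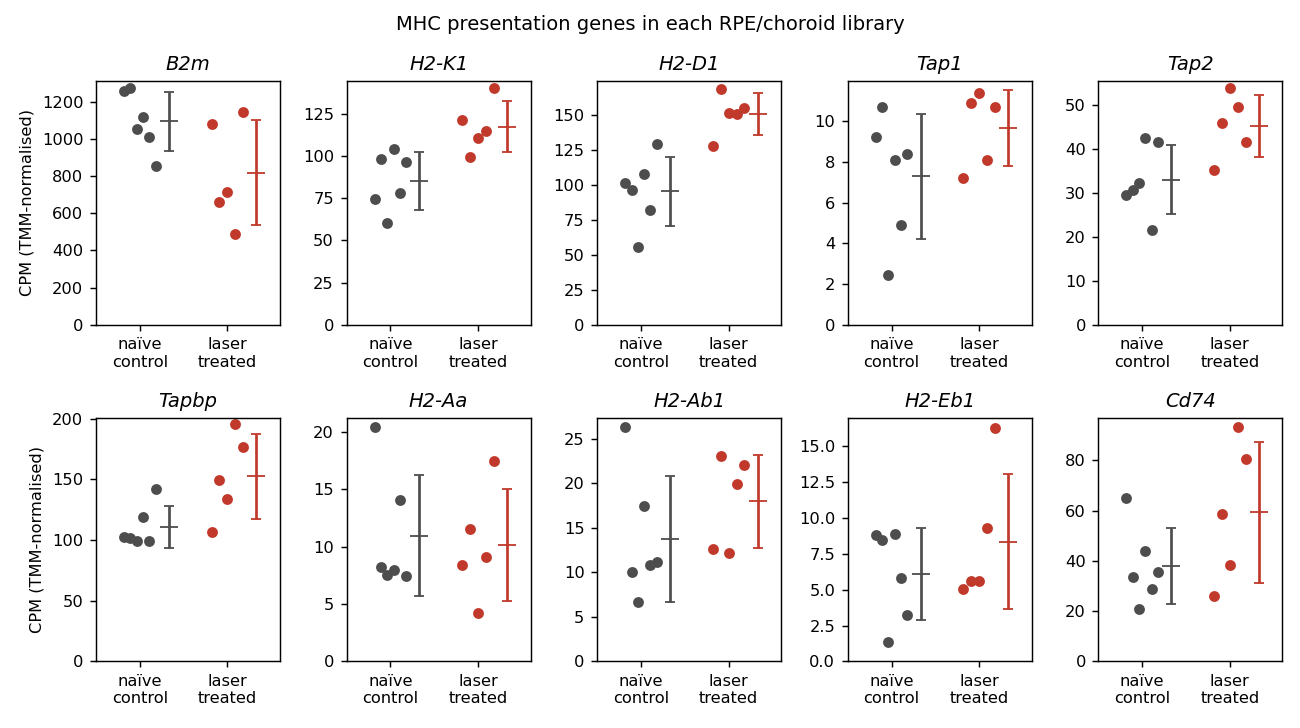
Level of each of the 10 genes in CPM (vertical axes, TMM scaled) in the 6 naïve control and 5 laser treated libraries, where each point is a library and the bar gives the mean ± SD. H2-D1 and H2-K1 have 4 of 5 laser treated points above the highest control, B2m has 3 of 5 below the lowest, and the class II genes overlap over most of their range.

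The relation of heavy to light chain was then expressed within each library, a quantity chosen after the values had been seen and given without a test. Per 100 counts of B2m, the naïve controls held 10.9 to 26.4 counts of H2-K1 and H2-D1 together, with a mean of 16.9 ± 5.34 (SD, n = 6). Laser treated libraries 1 to 5 held 23.1, 40.5, 36.6, 54.5 and 25.8, with a mean of 36.1 ± 12.6 (SD, n = 5). Control library 6 was above laser treated libraries 1 and 5, so the groups overlapped. Summed without B2m, the heavy chains took 115.6 to 225.9 CPM in the controls and 249.6 to 295.7 CPM after laser, which did not overlap. Singly, both heavy chains overlapped, and 1.4% of all genes had every laser treated library above every control. B2m and the heavy chains differ in GC content, and with the trend of fold change by GC content removed, the log2 fold changes were -0.09 for B2m, 0.31 for H2-K1 and 0.48 for H2-D1, which lie closer together than the -0.42, 0.46 and 0.66 without removal. Within the pair, H2-D1 stood at 112 ± 18.8 (SD, n = 6) and 131 ± 25.5 (SD, n = 5) counts per 100 counts of H2-K1.

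Tap1 and Tap2 form the transporter that moves peptides into the endoplasmic reticulum, and Tapbp (tapasin) bridges it to the class I heavy chain and edits the bound peptide. Tapbp (ENSMUSG00000024308, chr17:33915899-33929292) had a lowest control of 98.9 CPM, a median of 101.9 CPM and a highest of 142.2 CPM, and laser treated values of 106.6, 149.8, 133.8, 195.6 and 176.7 CPM. Its log2 fold change was 0.47 ± 0.16 (unadjusted p = 0.0117, adjusted p = 0.208, edgeR), and 3 of the 5 laser treated libraries lay above every control. Tap2 (ENSMUSG00000024339, chr17:34203527-34216321) ranged from 21.6 to 42.5 CPM with a median of 31.5 CPM in the controls. Its laser treated libraries held 35.3, 45.8, 53.9, 49.5 and 41.6 CPM. Again 3 of 5 lay above the highest control, and the log2 fold change was 0.45 ± 0.19 (unadjusted p = 0.0300, adjusted p = 0.261, edgeR). Tap2 kept an unadjusted p below 0.05 in 5 of 11 fits that each left out 1 library, whereas H2-K1, H2-D1 and Tapbp kept it in all 11.

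Tap1 (ENSMUSG00000037321, chr17:34187553-34197225) was, per kilobase of exon, far lower than its partner Tap2. Control levels were 2.42 to 10.7 CPM with a median of 8.23 CPM, and the laser treated libraries held 7.19, 10.9, 11.4, 8.11 and 10.7 CPM. The ranges largely coincided, and the log2 fold change of 0.41 ± 0.35 did not pass (unadjusted p = 0.267, edgeR). Exons of Tap1 overlapped those of Psmb9 by 212 bases, those of Tap2 overlapped Gm15821 and Gm20496 by 698 bases, and those of Tapbp overlapped Gm19412 and Zbtb22 by 1053 bases. The strand setting of the counting is not given in the sources used here, so reads of these stretches cannot be assigned with certainty.

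The class II chains H2-Aa (alpha) and H2-Ab1 (beta) pair to form I-A, the class II molecule at the surface of cells of this strain. H2-Aa (ENSMUSG00000036594, chr17:34282744-34287823) held 7.46 to 20.4 CPM in the controls with a median of 8.12 CPM, and 8.35, 11.6, 4.25, 9.11 and 17.5 CPM in the laser treated libraries. Its log2 fold change was -0.11 ± 0.38 (unadjusted p = 0.779, edgeR), and it was 0.17 without control library 1, the highest of all. H2-Ab1 (ENSMUSG00000073421, chr17:34257689-34269419) held 6.72 to 26.4 CPM in the controls with a median of 11.0 CPM, and 12.6, 23.1, 12.2, 19.9 and 22.03 CPM after laser. All 5 laser treated values were above the control median and none above the highest control, with a log2 fold change of 0.38 ± 0.33 (unadjusted p = 0.265, edgeR).

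H2-Eb1 (ENSMUSG00000060586, chr17:34305867-34316674) encodes the beta chain of I-E. Levels ranged from 1.32 to 8.87 CPM in the controls around a median of 7.14 CPM, and were 5.05, 5.57, 5.62, 9.29 and 16.2 CPM in the laser treated libraries. Control library 3 was the lowest and laser treated library 5 the highest, and the log2 fold change of 0.46 ± 0.48 was smaller than its own error (unadjusted p = 0.363, edgeR). Without laser treated library 5 it was 0.07. Cd74 (ENSMUSG00000024610, chromosome 18), the invariant chain that blocks the class II groove until it reaches the endosome, was the highest of the class II genes per kilobase of exon. Its controls held 20.99 to 65.02 CPM with a median of 34.5 CPM, and laser treated libraries 1 to 5 held 26.1, 58.8, 38.2, 93.3 and 80.4 CPM. Libraries 4 and 5 lay above the highest control, and the log2 fold change of 0.64 ± 0.33 did not pass (unadjusted p = 0.0735, adjusted p = 0.367, edgeR). The 3 chains and Cd74 summed to 68.7 ± 28.6 CPM (SD, n = 6) in controls and 95.8 ± 39.0 CPM (SD, n = 5) after laser. Cd74 counts per 100 counts of the 3 chains were 127 ± 22.5 (SD, n = 6) and 161.5 ± 52.9 (SD, n = 5), and both quantities overlapped between groups.

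Cells that make class II were followed by their markers. Of 23 macrophage and microglia markers, 21 were measured (Adgre1 and Cd163 were not), 14 of them with a log2 fold change below 0, and 0 had an unadjusted p below 0.05. Over all 14602 genes, 7521 were below 0 and 15.9% had an unadjusted p below 0.05 (edgeR). The summed level of these markers was 356.3 to 1105 CPM in the controls and 477.2 to 1074 CPM after laser, and 3 of the markers were at 0 in some library. The smallest p was that of Itgam, a leukocyte integrin subunit (log2 fold change -1.45, unadjusted p = 0.0671, edgeR). Dendritic cell markers were measured for 5 of 13 genes, without Flt3, Xcr1, Clec9a, Cd209a, Ccr7, Batf3, Clec10a or Cd80. Their sum was 40.5 to 59.3 CPM in the controls and 59.7 to 109 CPM after laser, without overlap, and lay mostly in Fscn1, an actin-bundling protein (log2 fold change 0.68 ± 0.17, unadjusted p = 0.00132, edgeR). With the GC trend removed Fscn1 was at 0.44 (unadjusted p = 0.0235, edgeR). Of all single genes, 1.4% had every laser treated library above every control. Without Fscn1 the sums were 4.15 to 13.8 and 8.68 to 15.9 CPM, which overlapped. Measured markers were 1 of 8 for B cells (Blnk) and 1 of 14 for T and NK cells (Nkg7). The part of these cells in the class II levels was not tested.

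Marker sums of the tissue overlapped between groups. The 12 RPE markers summed to 100600 to 141200 CPM in controls and 83250 to 137700 CPM after laser, so the labelled tissue was present in every library. The 12 neural retina markers, a tissue that had been removed by dissection, summed to 5883 to 21350 and 4094 to 18960 CPM. Of 13 endothelium markers 12 were measured, 11 of them above 0, at 133.7 to 373.0 and 220.5 to 625.2 CPM. Over all 14602 genes, 7081 were above 0. Fibroblast (9 of 9 measured), melanocyte (8 of 8), mast cell (5 of 7) and blood markers (4 of 7) also overlapped, the last at 48.1 to 326 and 37.2 to 159 CPM. Below 0 lay 10 of 12 neural retina, 4 of 4 blood, 7 of 12 RPE and 3 of 5 mast cell markers. For fibroblasts it was 3 of 9 and for melanocytes 2 of 8, against 7521 of all 14602 genes. Among these lists the unadjusted p was below 0.05 for 1 higher and 1 lower RPE marker, 1 higher melanocyte marker and 1 lower blood marker. Over all genes 8.24% were higher and 7.68% lower at this threshold (edgeR). The smallest p was that of Slc16a8 in RPE (0.50, unadjusted p = 0.00553), Sox10 in melanocytes (0.62, unadjusted p = 0.00164), Eng in endothelium (0.63, unadjusted p = 0.0918), Col1a2 in fibroblasts (0.56, unadjusted p = 0.0892), Nrl in neural retina (-0.78, unadjusted p = 0.136), Kit in mast cells (0.32, unadjusted p = 0.247) and Hbb-b1 in blood (-1.34, unadjusted p = 0.0224, all log2 fold change and edgeR). With the GC trend removed, Slc16a8 was at 0.28 (unadjusted p = 0.178) and Sox10 at 0.39 (unadjusted p = 0.0496, edgeR). The unadjusted p was then below 0.05 for 0 RPE markers and 2 higher melanocyte markers, against 4.03% of all genes higher. It was also below 0.05 for 3 lower blood markers, but the share of all genes lower was not taken for this setting. Among these 3, Hbb-b1 had no known GC content, so the trend was not removed from its value (-1.34, unadjusted p = 0.0223, edgeR). The part of these cells in the MHC values was not tested either.

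Across all genes the log2 fold change followed the GC content of the longest annotated transcript, and the 10 genes lay at different places along this trend. GC content was known for 14252 genes (97.6%). In 10 bins of equal gene number, from the lowest to the highest GC content, the median log2 fold change went from -0.37 to 0.30. B2m, at 41.2% GC, lay in the lowest bin, where its value of -0.42 stood beside a median of -0.37. H2-Aa, at 46.5% GC and a log2 fold change of -0.11, lay in a bin with a median of -0.14. Tap1, Tap2, Tapbp, H2-Ab1, Cd74 and H2-D1, at 55.8 to 57.3% GC, shared a bin with a median of 0.28, above which their values of 0.38 to 0.66 all lay. H2-K1 (54.3% GC, 0.46) and H2-Eb1 (51.8% GC, 0.46) lay above the medians of 0.22 and 0.18 of their bins.

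**Figure D2:**
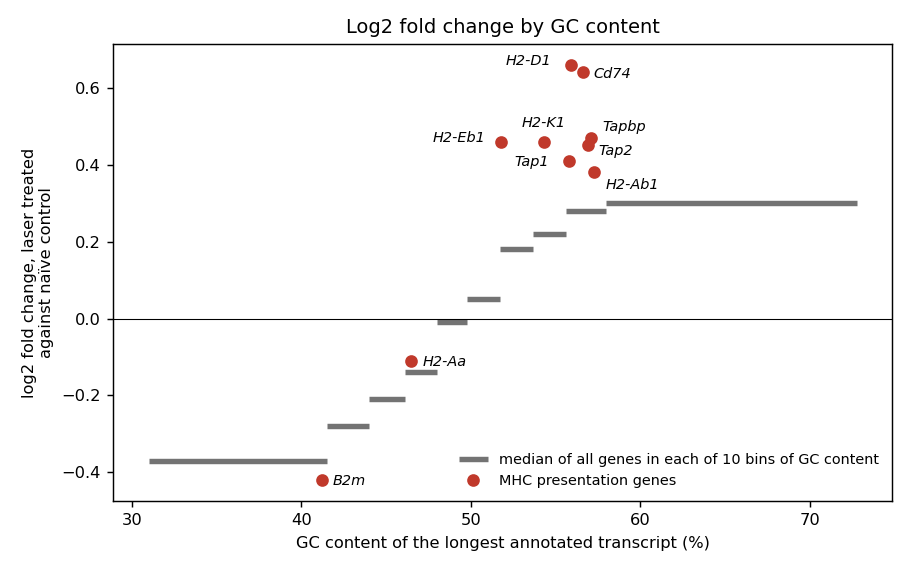
Log2 fold change after laser (vertical axis, relative to naïve controls) by GC content of the longest annotated transcript in percent (horizontal axis). Grey bars are medians of all genes in each of 10 bins of GC content, rising from -0.37 to 0.30, and red points are the 10 MHC genes, of which H2-D1 at 0.66 and Cd74 at 0.64 lie farthest above the bar of their bin.

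When the GC trend was removed within each library before the fit, H2-D1 kept a log2 fold change of 0.48 with an unadjusted p of 0.0147 (edgeR). It was then the only gene of the 10 with an unadjusted p below 0.05, against 588 genes (4.03%) higher in the whole table. H2-K1 went to 0.31 (unadjusted p = 0.0799), Tapbp to 0.23 (unadjusted p = 0.130) and Tap2 to 0.23 (unadjusted p = 0.252). The value of B2m went from -0.42 to -0.09 (unadjusted p = 0.642), and that of H2-Aa changed sign to 0.07. For Cd74 it was 0.41 (unadjusted p = 0.190), for H2-Eb1 0.36, for Tap1 0.21 and for H2-Ab1 0.17. Whether the GC trend belongs to the libraries or to the treatment cannot be told apart here.

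**Figure D3:**
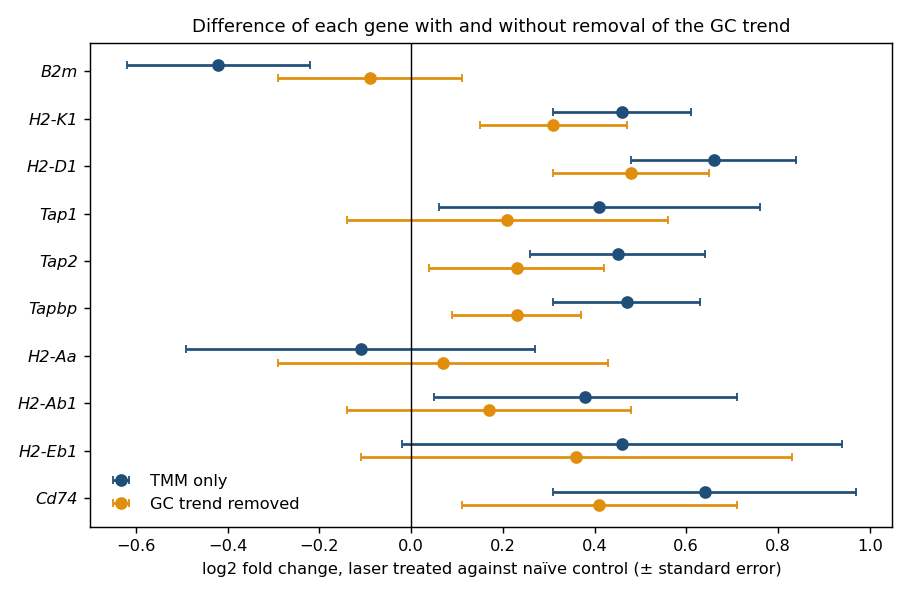
Log2 fold change ± standard error (horizontal axis) of each of the 10 genes, with TMM scaling only (blue) and with the GC trend removed (orange). B2m moves from -0.42 to -0.09, and H2-D1 stays the farthest from 0 after removal at 0.48.

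A label of R1 or R2 stood in the first line of the transcript files. Controls 1 to 3 and laser treated libraries 1 and 2 carried R1, and the remaining libraries carried R2. What the label means is not given in the sources used here. Within R1 and within R2 the log2 fold change was 0.83 and 0.54 for H2-D1, 0.53 and 0.41 for H2-K1, 0.37 and 0.51 for Tapbp, 0.42 and 0.47 for Tap2, and -0.43 and -0.32 for B2m, the same direction in both. That of Tap1 was 0.29 and 0.51, and that of H2-Ab1 was 0.33 and 0.48. Among the other class II genes Cd74 stood at 0.11 within R1 and 0.99 within R2, H2-Eb1 at -0.21 and 0.82, and H2-Aa at -0.25 and 0.09. Whether these differed between the labels was not tested.

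Levels of different genes were compared per kilobase of exon, over all 11 libraries. B2m was highest at a mean of 1128 CPM per kilobase, followed by H2-D1 at 46.8, Tapbp at 35.7, H2-K1 at 34.0 and Cd74 at 28.4 CPM per kilobase. Tap2 came next at 10.2, then H2-Ab1 at 6.10, H2-Eb1 at 3.66, H2-Aa at 2.79 and Tap1 at 1.53 CPM per kilobase. Neighbours held their order in 10 or 11 of the 11 libraries except for 3 pairs. Tapbp exceeded H2-K1 in 7 of 11 libraries, H2-K1 exceeded Cd74 in 7 of 11 and H2-Eb1 exceeded H2-Aa in 6 of 11, so these neighbours were not separated beyond their spread. Of the summed level per length of the genes other than Cd74, B2m held 88.0 ± 5.46% and the 3 class II chains 1.03 ± 0.475% (SD, n = 11 libraries). The corresponding shares of TPM, the length-scaled unit of the assembled transcript files, were 71.8 ± 10.0% and 2.46 ± 1.03%.

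The 10 genes were compared with each other over the 11 libraries as log2 CPM, in 45 pairs, each tested by permutation with 100000 resamples. Group differences enter these correlations, since both groups were pooled. For 8 of the 45 pairs the adjusted permutation p of Pearson's r was below 0.05. For each pair, r was also taken without the 2 libraries farthest from the median of the gene named first in the pair. The adjusted permutation p was then below 0.05 for 0 of 45 pairs. The libraries left out could differ between pairs, and leaving them out narrows the range of that gene and leaves fewer libraries. Without the 2 libraries of the pair, r stayed about as large for H2-D1 and Tapbp (0.771 to 0.801), H2-Ab1 and Cd74 (0.883 to 0.85) and Tap2 and Tapbp (0.756 to 0.737), although none passed over the remaining libraries. The other 5 of the 8 pairs had a smaller r, most of all H2-D1 and Tap1 (0.835 to 0.251), whose r depended on the 2 libraries left out for that pair. The 10 pairs among H2-K1, H2-D1, Tap1, Tap2 and Tapbp were all positive, with a median r of 0.718 (0.463 to 0.838). Pairs of B2m with these 5 genes were all negative, with a median r of -0.53 (-0.698 to -0.161), and 0 passed. The 6 pairs among the class II genes and Cd74 had a median r of 0.66 (0.453 to 0.883), and the 20 pairs between the classes without B2m 0.474.

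H2-Ab1 and Cd74 were the closest pair, with r = 0.883 (permutation p = 0.00034, adjusted p = 0.0153), rho = 0.818 (permutation p = 0.00346, adjusted p = 0.0546) and r = 0.85 without the farthest 2 libraries (adjusted permutation p = 0.198). Over the 6 controls alone their r was 0.976. H2-K1 and H2-D1 followed with r = 0.838 (permutation p = 0.00131, adjusted p = 0.0295), rho = 0.7 (permutation p = 0.0207, adjusted p = 0.133), 0.655 without the farthest 2 and 0.833 over the controls. For B2m and Tapbp, r was -0.698 (permutation p = 0.0155, adjusted p = 0.0652), rho was -0.464 (permutation p = 0.153) and r was -0.346 without the farthest 2 libraries.

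**Figure D4:**
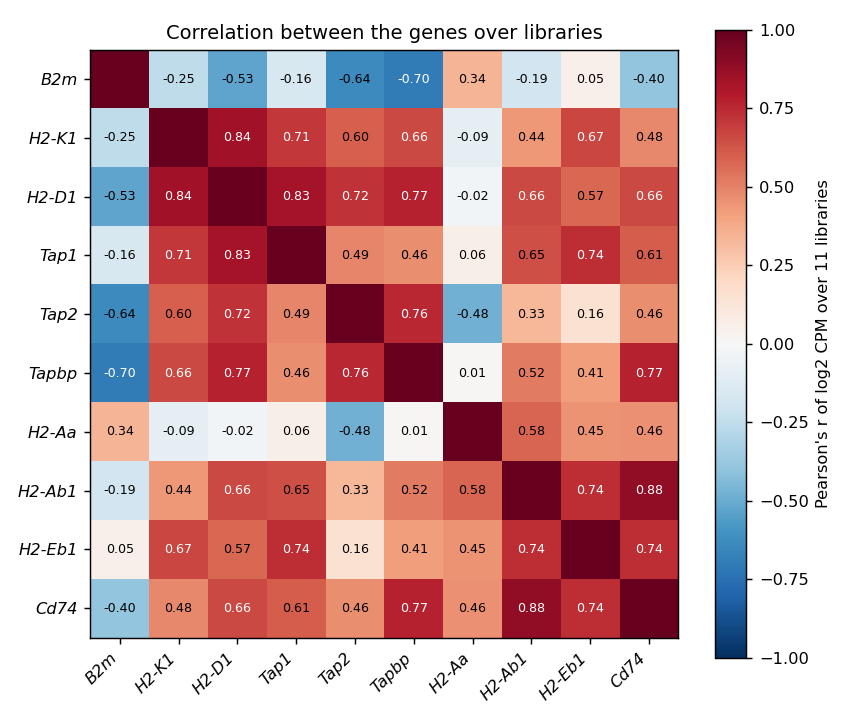
Pearson correlation of log2 CPM over the 11 libraries for each pair of the 10 genes, with both axes listing the genes and colour giving r. The class I block without B2m and the class II block are positive throughout, at medians of 0.718 and 0.66, and B2m is negative with all 5 other class I genes.

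Among the 13692 other genes with a mean of at least 1 CPM, those most like the class I chains (mean z-score of B2m, H2-K1 and H2-D1 over 11 libraries) were Gm16279 at r = 0.939, Nes (nestin) at 0.896, Rrbp1 at 0.875, Arrdc1 at 0.875 and Twsg1 at 0.873. B2m itself had an r of 0.124 with this score and H2-K1 0.899. Most like the class II genes were Tgfb3, a transforming growth factor, at r = 0.884, Trp53i11 at 0.864, Ltbp4 at 0.86, Mybpc2 at 0.858 and LOC100505050 at 0.853. All genes were compared over the same 11 libraries, which differ in depth and in the GC trend described above, and these values carry no test.

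The other genes of the pathway were counted by role, from lists drawn up by function. The list of interferon-induced genes also holds Tap1. No gene of any list passed the adjusted threshold with edgeR or had groups without overlap. Over all genes 8.24% were higher and 7.68% lower at an unadjusted p below 0.05, and each list held 0 to 2 such genes. Of 27 further class I heavy chains, 9 were measured, their median log2 fold change was 0.20, and 1 had an unadjusted p below 0.05. This was H2-T23, which encodes the Qa-1 molecule read by NK receptors, at 15.2 ± 3.58 CPM (SD, n = 6) in controls and 27.4 ± 8.64 CPM (SD, n = 5) after laser. Its log2 fold change of 0.85 ± 0.24 (unadjusted p = 0.00385, adjusted p = 0.177, edgeR) became 0.70 with the GC trend removed (unadjusted p = 0.0114). H2-Q6 had the next smallest p in this list (1.27, unadjusted p = 0.0564), at 0.932 CPM in controls and 2.25 CPM after laser. Among the class I-like molecules, 6 of 11 were measured with a median of 0.02, and Fcgrt, the neonatal Fc receptor that also binds B2m, was at 0.58 (unadjusted p = 0.0219), or 0.40 with the GC trend removed (unadjusted p = 0.0905). Mr1, which presents vitamin metabolites, had the highest mean CPM of them and was at -0.09, and Cd1d1, which presents lipids, was at -1.86 (unadjusted p = 0.180).

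Class I assembly chaperones were measured for 8 of 9 genes, with a median log2 fold change of 0.14. Calr (calreticulin) was at 0.36 (unadjusted p = 0.0411) and Canx (calnexin) at -0.27 (unadjusted p = 0.0449), both chaperones of the heavy chain, and Hspa5, the highest in mean CPM, was at 0.16. With the GC trend removed Calr was at 0.40 (unadjusted p = 0.0303), Canx changed sign to 0.04 (unadjusted p = 0.820), Hspa5 was at 0.36 (unadjusted p = 0.0338) and the median of the list was 0.34. All 6 genes of the immunoproteasome and its activator were measured, 0 of them with an unadjusted p below 0.05 and with a median of 0.01. Psmb9 was at 0.37, Psme2 at -0.14, and Psme3, the highest in mean CPM, at -0.01. For class II loading and processing, 10 of 17 genes were measured with a median of 0.09. Ctsd, the lysosomal protease cathepsin D that is abundant in RPE, was at 0.46 ± 0.14 (unadjusted p = 0.00624, adjusted p = 0.181, edgeR) and at 0.29 with the GC trend removed (unadjusted p = 0.108). H2-DMa, part of the molecule that exchanges peptides on class II, was at 1.12 (unadjusted p = 0.110).

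The 10 transactivators and promoter factors were all measured, with a median log2 fold change of 0.08. Nfyb, a subunit of the factor that binds the ATTGG element shown above, was at -0.41 (unadjusted p = 0.0324), or -0.13 with the GC trend removed (unadjusted p = 0.538). Rfxank was at 0.34 and Nfyc, the highest in mean CPM, at 0.16. The coactivators themselves, named for their role, were near the limit of detection. Nlrc5 had 0 to 5.72 CPM in controls and 0.0272 to 1.11 CPM after laser, and Ciita 0 to 0.786 and 0.271 to 1.14 CPM, so no difference was detectable at this depth (unadjusted p = 0.332 and unadjusted p = 0.301).

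Interferon receptors and signalling genes were measured for 18 of 18, with a median of 0.13 and 2 at an unadjusted p below 0.05, both higher, against 8.24% of all genes. These were Stat3 at 0.36 (unadjusted p = 0.0215) and Irf3 at 0.43 (unadjusted p = 0.0221), both transcription factors, which with the GC trend removed were at 0.26 (unadjusted p = 0.101) and 0.23 (unadjusted p = 0.205), leaving 0 of 18. Jak1, the highest in mean CPM, was at -0.30 (unadjusted p = 0.0585). Irf1, an interferon-induced transcription factor that acts on class I promoters and was named for that role, was at 0.40 (unadjusted p = 0.233). Interferon-induced genes, a list that also holds Tap1 of the 10 genes and Psmb8 and Psmb9 of the immunoproteasome, were measured for 31 of 36. Their median was 0.14, and 1 had an unadjusted p below 0.05. This was Iigp1, an interferon-inducible GTPase, at 0 to 2.83 CPM in controls and 2.74 to 10.5 CPM after laser (log2 fold change 2.77 ± 1.05, unadjusted p = 0.0198, adjusted p = 0.233, edgeR). With the GC trend removed Iigp1 was at 3.06 (unadjusted p = 0.0112, edgeR). The list then again held 1 gene higher at an unadjusted p below 0.05, against 4.03% of all genes. Gbp5, a guanylate-binding protein, was on the other side at -1.56 (unadjusted p = 0.0625), and Bst2, the highest in mean CPM, was at 0.14. Psmb8, an immunoproteasome subunit named for its role, was at -0.12 (unadjusted p = 0.773).

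**Figure D5:**
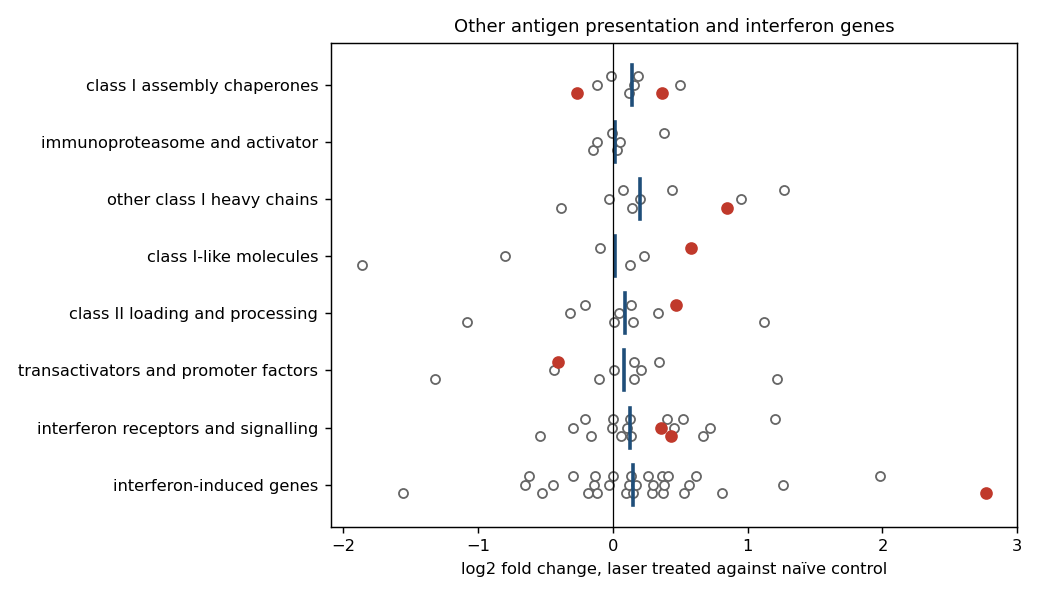
Log2 fold change after laser (horizontal axis, relative to naïve controls) for each measured gene of the 8 pathway lists (rows). Filled red points have an unadjusted p below 0.05, open points do not, and blue bars are medians, which lie between 0.01 and 0.20.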

How the data were processed

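RNA-seq of RPE/choroid from 6 naïve control and 5 laser treated C57BL/6J mice was used. Per the submitters' processing notes, the authors used bcl2fastq 2.18.0.12, Trim Galore, STAR 2.5.3a, featureCounts 1.5.3, StringTie 1.3.3 and edgeR 3.22.3 with mm10/GRCm38. The deposited table holds raw read counts per gene, and the deposited transcript files hold coverage, FPKM and TPM of assembled transcripts. The authors' own comparison columns (log fold change, log CPM, F, p and FDR) were not used. Groups came from the treatment labels.

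Counts were fitted with edgeR 4.0.16 (TMM, filterByExpr, which removed 0 genes, and robust quasi-likelihood) without covariates, with p adjusted over all 14602 genes. Common biological variation was 0.58. The code was tested on simulated data. Alternatives used DESeq2 1.42.0, limma 3.58.1, TPM, the GC trend (loess span 0.3) and omitted libraries. Correlations used log2 CPM with a prior count of 2. Exons, positions and GC came from GENCODE M21 (GRCm38), matched for 13045 genes by identifier, 1197 by older symbol and 10 by symbol, with 350 unmatched. Promoter sequences came from RefSeq. Per-length levels of Cd74 were not taken as TPM, because it was listed at 0 TPM in 8 of 11 libraries, a rule set after seeing the data.

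The 10 genes, the lists and the tests were chosen with earlier results of these data known. All 10 genes were named. From each pathway list the gene of the highest mean CPM, the 2 of the smallest unadjusted p and any without overlap were named, from each marker list the gene of the smallest p, and the 5 genes most like each class. Nlrc5, Ciita, Irf1 and Psmb8 were added for their role after values had been seen.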

Additional observations from a re-analysis of the deposited data

How the results depend on the processing

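The count of genes with an adjusted p below 0.05 was 0 with edgeR and 547 with DESeq2, 1 with library totals in place of TMM factors, 2 with at least 10 counts in every library, 1 with limma voom, 2 with log2(TPM + 1) and 2 with log2(TPM + 0.1), and 0 to 4 when each library was left out in turn (4 without laser treated replicate 2). The count of MHC genes with an unadjusted p below 0.05 was 4, and 1 with the GC trend removed, 1 with a replicate block and the GC trend removed, 1 within label R1, and 3 to 6 when each library was left out. The naïve controls and the laser treated samples came from different mice, so the replicate numbers do not pair libraries of one animal. As deviations from the group means, same-numbered libraries correlated at -0.009, 0.115, 0.28, -0.009 and -0.008. By this measure 2 of the 5 laser treated libraries correlated best with their own number, which does not settle whether the numbers mark anything shared. With the replicate block 0 genes passed and 5 MHC genes had an unadjusted p below 0.05, B2m being the addition (-0.55, unadjusted p = 0.0258, edgeR). B2m was also below 0.05 with DESeq2 (unadjusted p = 0.0418), limma voom (unadjusted p = 0.0249) and at least 10 counts in every library (unadjusted p = 0.0477), with 5 MHC genes each. H2-Aa changed sign, from -0.11 to 0.12 with TPM under either pseudocount, to 0.07 with the GC trend removed and to 0.09 within R2, and ranged from -0.40 to 0.17 when libraries were left out, above 0 without control replicate 1 (0.17) or laser treated replicate 3 (0.09). H2-Eb1 was -0.21 within R1. The other 8 genes kept their direction in every alternative run. When each library was left out, the log2 fold change of H2-D1 was 0.53 to 0.75, of H2-K1 0.37 to 0.52, of Tapbp 0.35 to 0.57, of Tap2 0.34 to 0.53, of Tap1 0.21 to 0.55, of B2m -0.57 to -0.30, of H2-Ab1 0.23 to 0.68, of H2-Eb1 0.07 (without laser treated replicate 5) to 0.59 and of Cd74 0.41 to 0.87. B2m and Cd74 each had an unadjusted p below 0.05 in 3 of these 11 fits and H2-Ab1 in 1. Pairs with an adjusted permutation p below 0.05 went from 8 to 0 without the 2 libraries farthest from the median of the first gene of each pair. Of these 8, r was about as large for H2-D1 and Tapbp (0.801), H2-Ab1 and Cd74 (0.85) and Tap2 and Tapbp (0.737) and smaller for the other 5. With TPM the share of B2m was 71.8% and that of the class II chains 2.46%. No TPM value was used for Cd74. The causes were not tested. Precision is limited by 11 libraries. Tap1 and the class II chains, at levels near 10 CPM, had an SD of 41.9 to 52.7% of the mean in the controls. Counts are of amplified reads.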
